A study of Homo sapiens with 48 samples.

Results

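The genes described here encode the extracellular matrix and matricellular proteins of BEAS-2B cells: collagens, laminins, nidogens, perlecan, fibronectin, fibrillins and their microfibril partners, matricellular proteins, proteoglycans and lysyl oxidases. The set was a list of 39 gene symbols, chosen with earlier results of these data known. Shares of its genes called are therefore a description and no test of the set. For each gene the brightest probe set annotated with that symbol alone was used, which gave values for 38 of the 39 genes among 19775 genes on the array. LAMA3, the laminin chain that pairs with LAMB3, had no such probe set and was not analysed here.

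BEAS-2B is an immortalised human bronchial epithelial cell line. Confluent cultures, grown without serum and kept for a last day without added growth factor or pituitary extract, received vehicle, Ind/GSK or GS-5759. Ind/GSK is indacaterol, a long-acting β2-adrenoceptor agonist, given together with GSK 256066, an inhibitor of the cyclic AMP-degrading enzyme PDE4, each at 10 nM. GS-5759, also at 10 nM, joins both activities in a single molecule. Cells were collected after 1, 2, 6 or 18 h, and each of the 12 groups held 4 samples numbered as replicates 1 to 4, 48 in all, each on an Affymetrix array of 54675 probe sets. All groups shared the line and the medium, so the measurements come from 1 transformed line in monoculture at 1 dose of each agent. The labels do not say whether replicates were separate cultures, so p-values measure only the spread between these samples.

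Epithelial cells lay down a basement membrane in which type IV collagen and laminin form networks that nidogens and perlecan tie together. Fibrillar collagens, fibronectin and fibrillin microfibrils belong to the interstitial matrix below it, lysyl oxidases cross-link collagen and elastin, and matricellular proteins such as thrombospondins, periostin and the SPARC family bind matrix and growth factors without being structural themselves. β2 agonists raise cyclic AMP and PDE4 inhibitors slow its breakdown, and cyclic AMP acts on transcription in part through factors of the CREB family.

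The 12 arrays of replicate 3 stood apart from the other 36 in keratins. Signals, in linear intensity units, were 186879 to 441003 for KRT14 in replicate 3 and 13.3 to 31.9 elsewhere, and 29513 to 36309 for KRT5 against 108 to 277. KRT19 (2296 to 4520.1 against 0.00290 to 118) and CDH1, the epithelial cadherin (614 to 1529.9 against 173 to 456), were also higher there, while KRT8 and KRT18 had overlapping ranges. Of 11 epithelial markers listed, 9 had values, 8 of them above the level used as a filter, and their summed signal was 246601 to 500552 in replicate 3 and 10017 to 21117 in the other replicates. All 13 mesenchymal markers had values, 12 above the filter level, and their sum was 18339 to 19567 in replicate 3, 18740 to 20412 in replicate 1, 19958 to 21837 in replicate 2 and 20108 to 21731 in replicate 4. VIM, the filament gene that makes up most of that sum, overlapped, and 9 of the 12 differed between replicate numbers in limma's F-test. In replicate 3 PDGFRB, a growth factor receptor (909 to 1180.2 against 1414 to 2773), and THY1, a surface protein (694 to 881 against 1086 to 1943), were lower without overlap, and S100A4, a calcium-binding protein (269 to 445 against 108 to 191), was higher. Among endothelial markers CDH5, KDR, TEK and CLDN5 lay at or below the filter level, as did the leukocyte gene PTPRC. The part of these markers in the results below was not tested. Calls that did not pass without replicate 3 are named with the results.

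Signals of the matrix genes ranged widely. Over the 48 arrays the median signal was 10634 for COL8A1, a short-chain collagen, 9441 for SPARC, a collagen-binding matricellular protein, 9403 for COL1A1, a chain of type I collagen, 7212 for FBN2, a microfibril-forming fibrillin, and 6762 for FN1, fibronectin. Probe sets differ in how strongly they hybridise, so these signals are not ranked against each other. TNC, the matricellular protein tenascin C, was dim outside replicate 3. Its mean log2 level of 5.87 was below the filter level of 6.51 (a signal of 75.4), 34 of its 48 arrays were below that level while all 12 of replicate 3 were above it, and it was not among the 37 genes tested of 14409 in all. COL16A1, a fibril-associated collagen, was below the filter level in 25 arrays, COL3A1, the type III collagen chain, in 9, LAMB3, a laminin beta chain, in 7, and SPOCK1, a SPARC-family proteoglycan, in 2. COL1A2, the other type I chain, had a low mean log2 level of 7.23 but no array below the filter level. The median of the mean log2 levels was 10.16 over the 37 genes tested, against 9.45 over all genes tested. The part of level in the shares of genes called was not tested.

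The replicate number, not the treatment, accounted for most of the variation of matrix genes. With the sum of squares of each gene over 48 arrays divided among time, treatment, their interaction, replicate number and the rest, the median share of replicate number was 74.2% over the 37 genes, against 22.4% over all genes tested. The median shares were 8.22% for time (15.9% over all genes) and 1.44% for treatment (5.55% over all genes). In limma's F-test of replicate number with Benjamini-Hochberg adjustment, 34 of 37 genes differed between numbers, where the share over all genes was 71.3%. The genes that did not pass were COL3A1, LAMC1, a laminin gamma chain, and POSTN, periostin. With replicate 3 left out, 29 of the 37 passed, and the share over all genes in that fit was not counted.

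**Figure D1:**
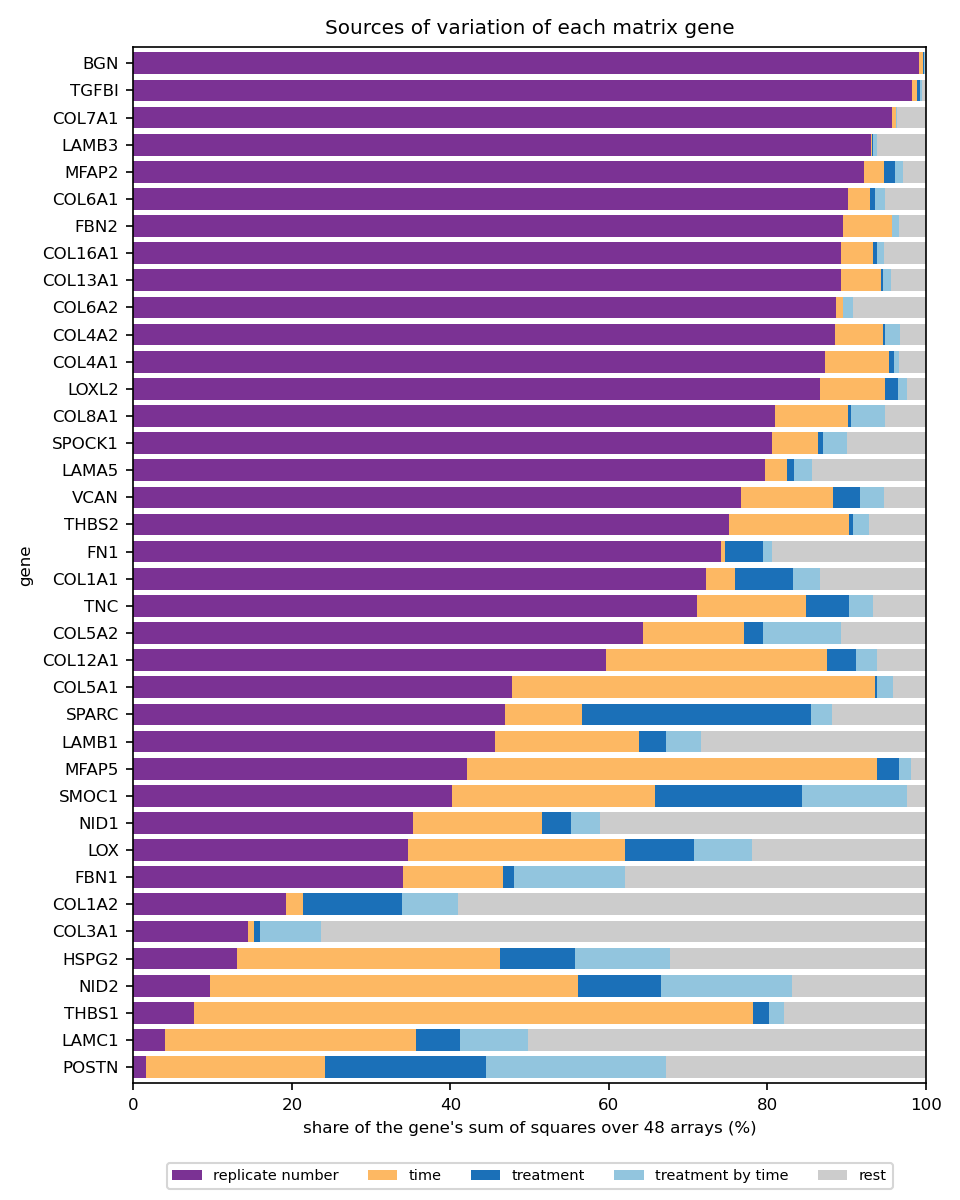
Share (%) of each matrix gene's sum of squares over 48 arrays that goes with replicate number, time, treatment, treatment by time and the rest, 1 stacked bar per gene. Replicate number takes 99.1% for BGN and 98.2% for TGFBI but 1.64% for POSTN and 4.04% for LAMC1, and time takes 70.6% for THBS1.

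The plot of variation shares shows how unequal the genes were. Replicate number took its largest shares in BGN, TGFBI, COL7A1 (95.8%), LAMB3 (93%), MFAP2 (92.2%) and COL6A1 (90.2%). Time held the largest of the 5 shares for THBS1, thrombospondin 1 (70.6%), MFAP5 (51.7%), NID2 (46.5%) and HSPG2 (33.1%). Treatment took its largest shares in SPARC (28.9%), POSTN (20.4%) and SMOC1 (18.5%).

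The size of the difference between replicate numbers was large for matrix genes. The means of the highest and the lowest number were at least 2-fold apart for 14 of 37 genes, 37.8%, where the share over all genes was 5.3%. One of the 14, COL16A1, passed the filter only through replicate 3, with a mean log2 level of 6.72 and of 6.31 without it. Among genes above the filter level whichever number was left out, it was 13 of 36, 36.1%, against 4.96%. Over replicates 1, 2 and 4 alone it was 5 genes, 13.5%, against 1.32%, and these were BGN, TGFBI, VCAN, SMOC1 and COL7A1. Replicate 3 had the lowest mean for 18 of the 37 genes, 48.6%, against 38.5% of all genes. It had the highest for 13, 35.1%, the same share as over all genes, 35.1%. In all 12 groups its array was the lowest for 11 genes: COL5A1, COL5A2, COL4A1, COL4A2, COL6A1, COL6A2, COL8A1, COL13A1, FBN2, MFAP5 and LOXL2. It was the highest in all 12 for COL7A1, COL16A1, LAMA5, LAMB3, MFAP2, TNC, TGFBI and BGN. How often this happened over all genes was not counted.

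**Figure D2:**
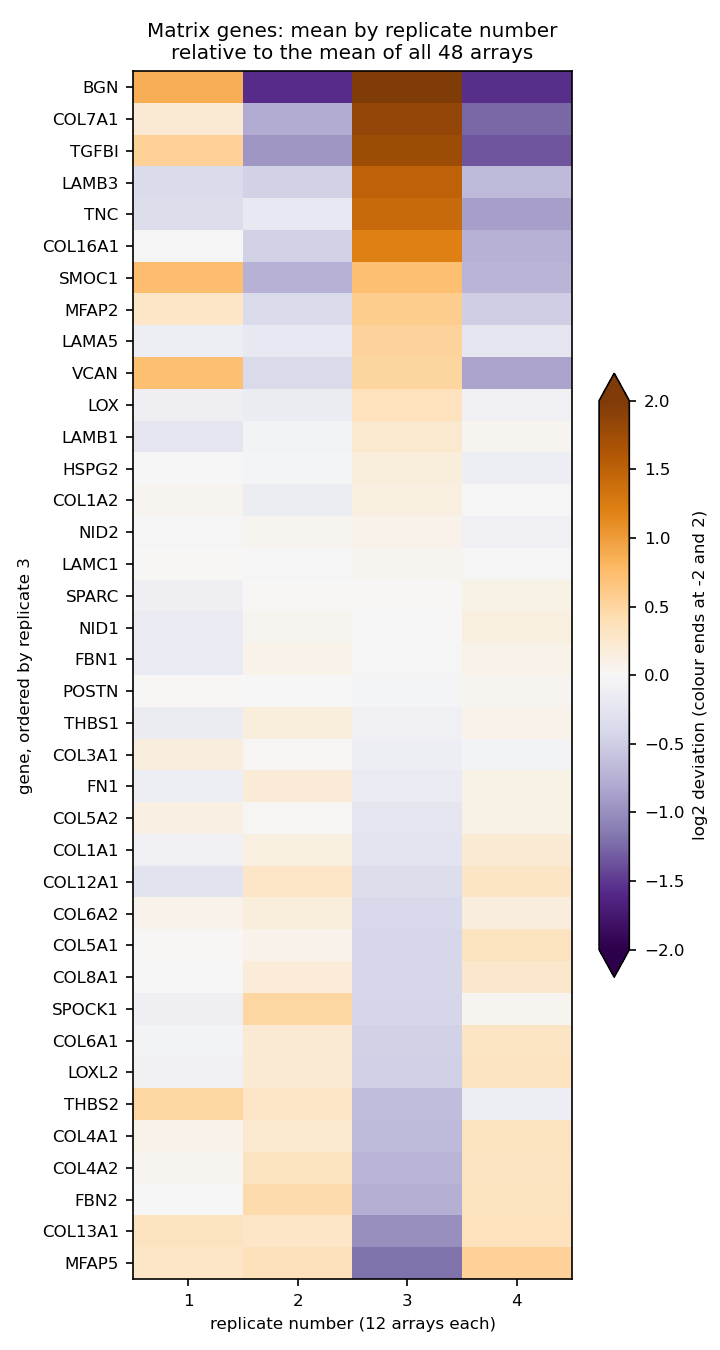
Deviation (log2) of the mean of each replicate number from the mean of all 48 arrays for 38 matrix genes, ordered by the deviation of replicate 3, 12 arrays per cell. Replicate 3 is low for chains of types IV, V, VI and XIII collagen and FBN2 and high for BGN, TGFBI, COL7A1 and LAMB3, and replicate 1 shares the high level of BGN and TGFBI.

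In the map of replicate numbers, which is sorted by replicate 3, chains of types IV, V, VI and VIII collagen were lower in replicate 3. A group of mixed roles was higher. COL4A1 and COL4A2, the chains of the common type IV collagen, had mean signals of 1282, 1432, 758 and 1533 and of 1594, 1924, 937 and 1911 in replicates 1 to 4. Replicate 3 was the lowest for both chains, 2.02-fold and 2.05-fold below the highest number. The 2 genes are neighbours on chromosome 13 and are read in opposite directions from a shared interval. Their log2 levels followed each other with r = 0.97 over 48 arrays and 0.98 after group means were taken out, as a description of arrays that share the replicate structure. The interval between their starts, from RefSeq's GRCh38.p14 annotation, is shown because both genes are read outward from it. It spans chr13:110307158-110307283, is written on the plus strand, and capitals mark GGGCGG, the GC box.
COL4A1-COL4A2: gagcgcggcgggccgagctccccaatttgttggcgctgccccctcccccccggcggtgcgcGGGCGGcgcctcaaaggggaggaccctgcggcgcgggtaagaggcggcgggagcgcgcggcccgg

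Other neighbouring or partner chains were less alike. COL6A1 and COL6A2, the type VI collagen chains on chromosome 21, followed each other with r = 0.88. COL3A1 and COL5A2, neighbours on chromosome 2, had r = 0.12, with COL3A1 near the filter level. COL1A1 on chromosome 17 and COL1A2 on chromosome 7, whose products join in 1 fibre, had r = -0.38. COL1A1 signals were 8465, 9831, 7455 and 10390.4 by replicate number, with replicate 3 the lowest, and COL1A2 signals 139, 122, 149 and 132, with replicate 3 the highest.

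Among genes higher in replicate 3, BGN, the small proteoglycan biglycan, differed most. Its mean signals in replicates 1 to 4 were 1418, 247, 3769 and 252, a 14.3-fold range (adjusted p = 2.79e-46). Replicates 1 and 3 were high and 2 and 4 low, without overlap, and 2 other BGN probe sets gave log2 ranges of 3.96 and 2.93 beside 3.84. TGFBI, a TGF-β-induced adhesion protein, was also high in replicates 1 and 3, with 1670.3, 577, 3874 and 433 (8.68-fold, adjusted p = 1.26e-37). COL7A1, the anchoring fibril collagen that fastens epithelium to stroma, had 372, 169, 1129 and 119 (8.54-fold, adjusted p = 1.57e-24). For COL7A1 replicate 3 was the highest by a wide margin and replicate 1 the next. LAMB3 had 98.0, 90.7, 405 and 76.6 and COL16A1 89.4, 61.2, 237 and 47.4, both dim outside replicate 3. MFAP5, a microfibril-associated glycoprotein, went the other way with 1297, 1377, 500.4 and 1498 (3.32-fold), lowest in replicate 3. Each array read the RNA of a whole sample, and the labels name no mixture of cells. Fewer cells expressing a gene and less RNA per cell cannot be told apart in such values.

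Because arrays with the same number deviated together, 2 fits are reported. The first takes the 12 group means alone. The second adds the replicate number as a block, which removes the differences just described and narrows the errors. A gene is said to have risen or fallen where its adjusted p from limma, over all 14409 genes, was below 0.05, with the fit named. Differences are of log2(signal + 16), which understates the change of dim genes, and the ± values are standard errors. Both treatments were compared with the same vehicle arrays, so their values are set side by side and their likeness is not tested.

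The clearest response to treatment among matrix genes was at 6 h. With Ind/GSK 1 of 37 genes rose on group means and none fell, where 3.73% of all genes passed and 1.03% rose. With the block 9 rose and 5 fell (24.3% and 13.5%), where 4.68% of all genes rose and 13.1% fell. With GS-5759 1 rose on group means, where 1.58% of all genes passed and 1.03% rose, and 8 rose and 1 fell with the block (21.6% and 2.7%), against 6.01% and 4.58%. The median difference over the 37 genes was 0.08 with Ind/GSK and 0.11 with GS-5759, against -0.04 and 0.00 over all genes. Without replicate 3, 6 of the 14 Ind/GSK calls and 4 of the 9 GS-5759 calls remained. Another centring of the arrays gave 10 risen and 3 fallen, or with quantile normalization 10 and 2, for Ind/GSK. For GS-5759 these were 7 and 2, and 8 and 2. The 8 genes that rose with both treatments in the blocked fit were SMOC1, MFAP5, VCAN, LOX, HSPG2, COL12A1, TGFBI and COL8A1.

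**Figure D3:**
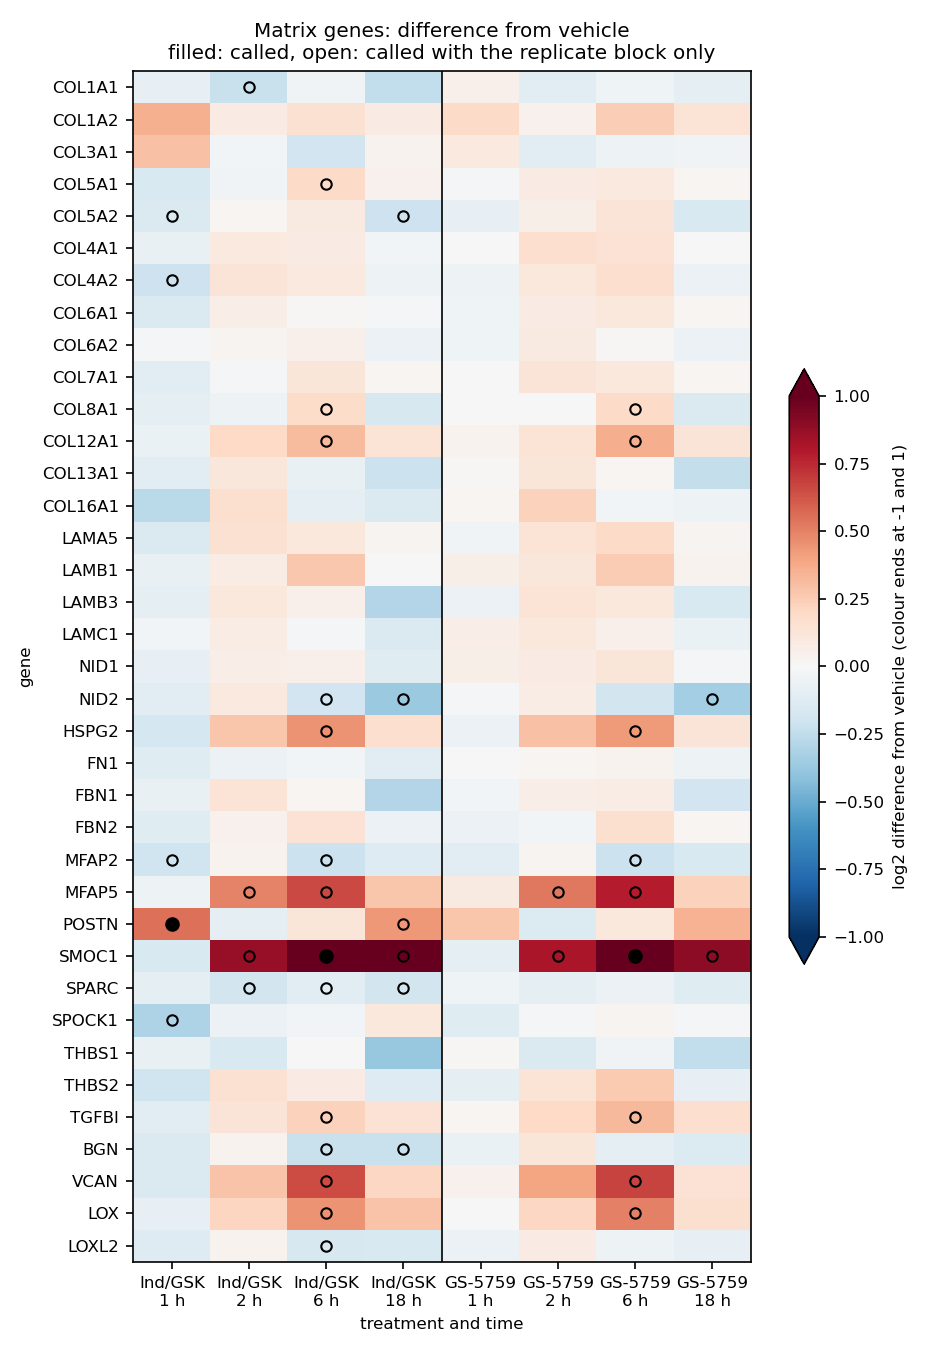
Difference from vehicle (log2) of 37 matrix genes, ordered by role, with Ind/GSK and GS-5759 at 1, 2, 6 and 18 h, 4 arrays per group. SMOC1 holds the largest values, 2.34 and 2.30 at 6 h, and most other cells lie within 0.5 of 0.

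SMOC1, a calcium-binding matricellular protein of basement membranes and a SPARC relative, rose with both treatments at 6 h. Its signals in replicates 1 to 4 were 524, 162, 469 and 134 with vehicle (322 ± 203, SD, n = 4). They were 2283, 754, 2633 and 964 with Ind/GSK (1658 ± 938) and 2196, 843, 2262 and 933 with GS-5759 (1558 ± 776). Every treated array was above every vehicle array, and in each group replicates 1 and 3 were the highest. The log2 difference was 2.34 ± 0.60 with Ind/GSK, 5.06-fold, and 2.30 ± 0.60 with GS-5759, 4.92-fold, both in 4 of 4 replicate numbers. The limma adjusted p was 0.017 and 0.0343 on group means. With the block it was 1.24e-14 and 2.17e-14, with a standard error of 0.15. On group means the call was lost for each treatment when vehicle replicate 2 or 4, treated replicate 1 or 3, or any of the 4 replicate numbers was left out, with differences of 2.03 to 2.65 and 1.99 to 2.60. With the block it passed in all 12 such fits, from 2.22 to 2.42 and from 2.18 to 2.39. A second SMOC1 probe set gave 2.58 and 2.49.

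SMOC1 is on chromosome 14. The 250 bases before its RefSeq start, chr14:69879166-69879415 on the plus strand of GRCh38.p14, are shown because SMOC1 had the largest response, and capitals mark TGACG, the core of the cyclic AMP response element, and TATAAA, the TATA box, both read here on the opposite strand.
SMOC1: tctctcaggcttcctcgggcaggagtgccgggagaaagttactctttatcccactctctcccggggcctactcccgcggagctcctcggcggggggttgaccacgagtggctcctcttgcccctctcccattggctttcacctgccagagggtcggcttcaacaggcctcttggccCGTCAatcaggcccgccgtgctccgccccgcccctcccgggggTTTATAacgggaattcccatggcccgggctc

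The SMOC1 response had a clear course. At 1 h signals were 489, 164, 403 and 192 with vehicle, 404, 148, 399 and 166 with Ind/GSK and 438, 141, 443 and 169 with GS-5759, with the groups overlapping throughout. At 2 h they were 404, 174, 387 and 186, 798, 289, 951 and 287 and 835, 313, 778 and 262 in the same order. Each treated array was above the vehicle array of its own number, but the groups overlapped, since vehicle replicates 1 and 3 exceeded treated replicates 2 and 4. The blocked fit called the rise at 2 h, by 0.87 (block adjusted p = 4.39e-05) and 0.81 (block adjusted p = 1.18e-04). At 18 h vehicle arrays read 665, 199.6, 442 and 181, Ind/GSK arrays 1464, 445, 2335 and 372 and GS-5759 arrays 1111, 359.6, 966 and 361. The blocked differences were 1.39 (block adjusted p = 8.27e-08) and 0.89 (block adjusted p = 0.00122). Without replicate 3 they were 1.07 and 0.82, both still called. The GS-5759 call at 18 h was lost without replicate 1 or without replicate 2.

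**Figure D4:**
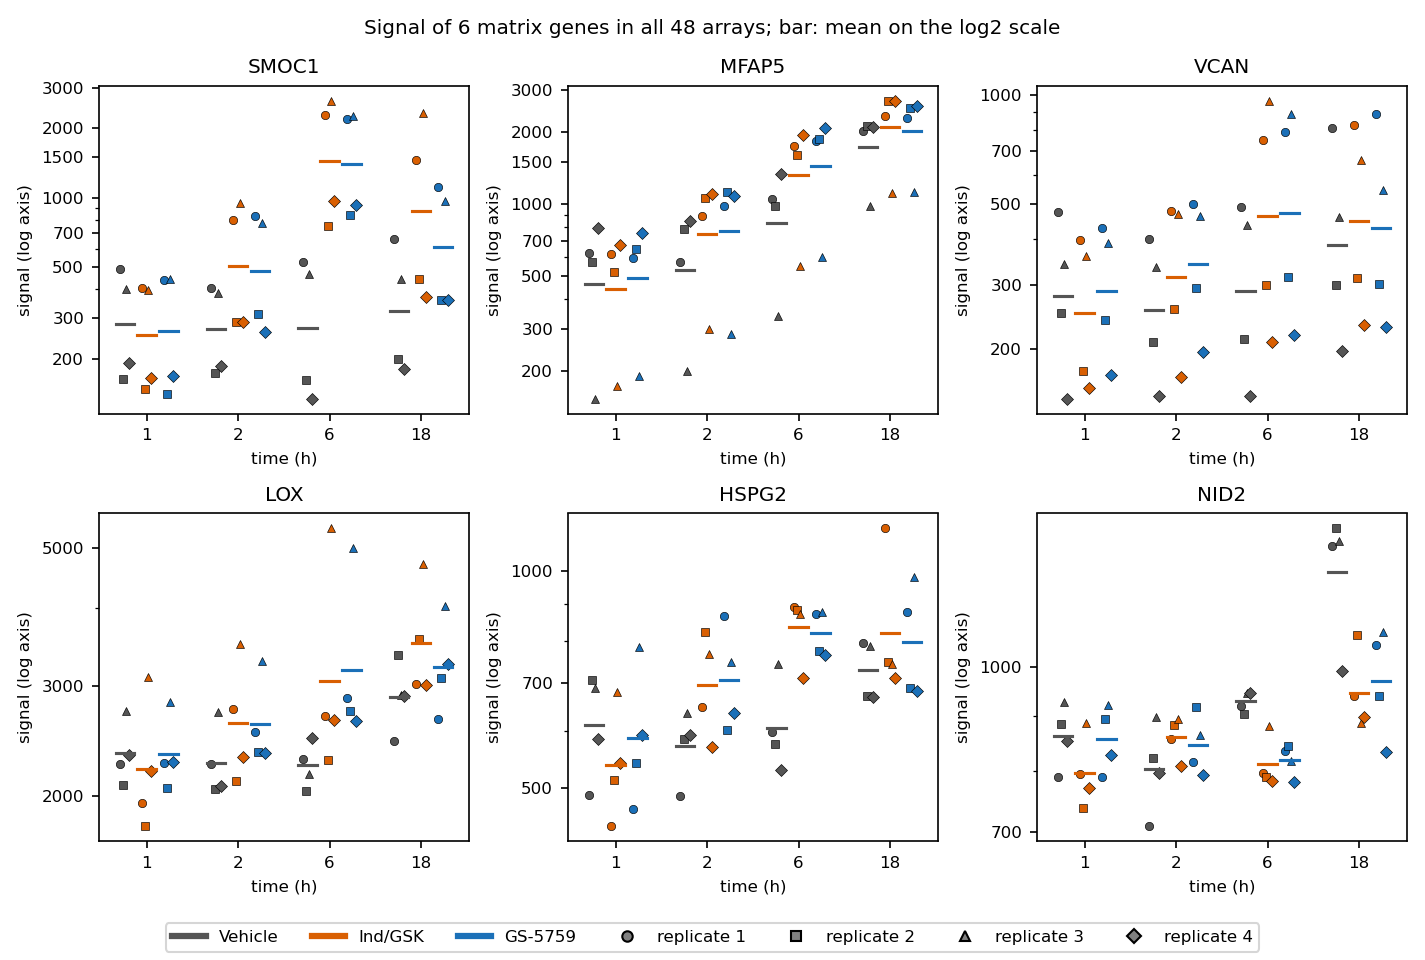
Signal (linear intensity, log axis) in each of 48 arrays for SMOC1, MFAP5, VCAN, LOX, HSPG2 and NID2, by time (h) and treatment, 4 arrays per group with replicate 3 marked. SMOC1 at 6 h runs from 134 to 524 with vehicle and from 754 to 2633 with treatment, and MFAP5 in replicate 3 lies below the other 3 numbers in every group.

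MFAP5, which binds fibrillin microfibrils, rose in the blocked fit at 2 and 6 h. At 6 h its signals were 1052, 983, 339 and 1334 with vehicle, 1741, 1603, 549 and 1949 with Ind/GSK and 1838, 1868, 597 and 2079 with GS-5759. Replicate 3 was the lowest each time, so the groups overlapped, while within each number treated arrays were higher. The difference was 0.66 (block adjusted p = 1.62e-04) and 0.78 (block adjusted p = 1.96e-05), with a standard error of 0.12. Without replicate 3 it was 0.65 and 0.78, still called, and each of the 12 fits without an array or a number kept the call. At 2 h signals were 572, 784, 199 and 844 with vehicle, 888, 1061, 298 and 1102 with Ind/GSK and 981, 1124, 285 and 1082 with GS-5759. The blocked difference was 0.49 (block adjusted p = 0.00493) and 0.53 (block adjusted p = 0.00311), lost only without replicate 1 among the leave-out fits. On group means neither time passed.

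VCAN, the large chondroitin sulfate proteoglycan versican, rose at 6 h in the blocked fit. Signals were 492, 212, 438 and 148 with vehicle, 752, 299, 963 and 209 with Ind/GSK and 790.5, 316, 888 and 218 with GS-5759. Replicates 1 and 3 were high and 2 and 4 low in each group, and each number was higher with treatment. The difference was 0.65 (block adjusted p = 8.29e-04) and 0.68 (block adjusted p = 9.74e-04). It was 0.50 and 0.57 without replicate 3, still called, and 4 other VCAN probe sets gave 0.54 to 0.70 and 0.60 to 0.78. The 250 bases before the RefSeq start of VCAN, chr5:83471494-83471743 on the plus strand of GRCh38.p14, hold TGACG close to the start, in capitals.
VCAN: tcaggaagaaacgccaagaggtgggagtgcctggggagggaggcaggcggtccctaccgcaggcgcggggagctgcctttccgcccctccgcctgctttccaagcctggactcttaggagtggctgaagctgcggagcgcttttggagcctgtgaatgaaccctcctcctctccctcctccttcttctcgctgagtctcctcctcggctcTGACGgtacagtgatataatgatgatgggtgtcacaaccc

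LOX, the lysyl oxidase that cross-links collagen and elastin, rose at 6 h in the blocked fit, and the rise rested on replicate 3. Signals were 2291, 2039, 2170.0 and 2477 with vehicle, 2688, 2279, 5368 and 2647 with Ind/GSK and 2873, 2733, 4994 and 2632 with GS-5759. Replicate 3 alone more than doubled. The difference was 0.45 (block adjusted p = 0.0152) and 0.51 (block adjusted p = 0.00936), and without replicate 3 it was 0.16 (block adjusted p = 0.396) and 0.28 (0.148). Leaving out only the vehicle or only the treated array of replicate 3 also ended the call. The epithelial marker sum of replicate 3 is given above, and its part in this response was not tested.

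HSPG2, the basement membrane proteoglycan perlecan, rose at 6 h in the blocked fit. Signals were 598, 575, 744 and 530.5 with vehicle, 893, 884, 872 and 710.4 with Ind/GSK and 872, 776, 878 and 765 with GS-5759. All GS-5759 arrays were above all vehicle arrays, and the lowest Ind/GSK array, replicate 4, was below vehicle replicate 3. The difference was 0.45 (block adjusted p = 0.0161) and 0.43 (block adjusted p = 0.0356). A second, dimmer HSPG2 probe set gave 0.08 and 0.20, and with the mean of both neither treatment was called. Without replicate 3 the Ind/GSK difference was 0.53 and still called, and the GS-5759 difference 0.49 (block adjusted p = 0.0795) was not. The GS-5759 call held in 2 of 12 leave-out fits. The Ind/GSK call was lost without Ind/GSK replicate 1 or 2 and without replicates 2 or 4.

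COL12A1, a fibril-associated collagen, gave signals of 2945, 3678, 2514 and 4304 with vehicle, 3274, 4756, 3670.5 and 4909 with Ind/GSK and 3679.7, 5215, 3559.9 and 4725 with GS-5759 at 6 h. Each number was higher with treatment although the groups overlapped, and the blocked rise was 0.31 (block adjusted p = 0.00567) and 0.36 (block adjusted p = 0.00251). It was 0.24 and 0.32 without replicate 3 and then not called, nor was it without replicate 2 or, for Ind/GSK, without the treated array of replicate 3. TGFBI signals were 1368, 514, 3729 and 374 with vehicle, 1876, 581, 4143 and 419 with Ind/GSK and 1959, 644, 4231 and 461 with GS-5759, a blocked rise of 0.23 (block adjusted p = 0.0321) and 0.33 (block adjusted p = 0.0044). The GS-5759 rise of TGFBI passed in all 12 leave-out fits and the Ind/GSK rise in 3, with 0.26 (block adjusted p = 0.083) without replicate 3. COL8A1 read 10342, 10507, 7407 and 11512, 10761, 12322, 9100.1 and 12793 and 11875, 11865, 8673 and 12830.5 in the same order of groups, a blocked rise of 0.18 and 0.19 that was not called without replicate 3. COL5A1, a type V collagen chain that starts fibrils, was called with Ind/GSK, at 0.19 (block adjusted p = 0.0445), and not with GS-5759, at 0.10 (block adjusted p = 0.374). Other COL5A1 probe sets had the opposite order, with 0.07 and 0.13 for Ind/GSK and 0.20 and 0.23 for GS-5759. The Ind/GSK call held in 4 of 12 leave-out fits, was lost without replicates 2, 3 or 4 (0.19, block adjusted p = 0.0861, without replicate 3), and was lost with no filter and with the mean of all probe sets, which gave 0.13. The difference between these 2 responses was tested directly and was -0.09 (95% interval -0.23 to 0.04, block adjusted p = 0.576).

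The falls at 6 h were small. BGN read 1469.9, 273, 3786 and 253 with vehicle, 1209.9, 211, 3450.4 and 229 with Ind/GSK and 1317, 258, 3627 and 242 with GS-5759, lower in every number with Ind/GSK, by -0.22 (block adjusted p = 0.00447), and not called with GS-5759, by -0.09 (block adjusted p = 0.331). Without replicate 3 the Ind/GSK fall was -0.25 and still called, and it was lost without replicate 1 or without replicate 2. MFAP2, a microfibril glycoprotein, read 748, 446, 929 and 416 with vehicle, 641, 407, 705 and 379.8 with Ind/GSK and 643, 398, 719.6 and 379.6 with GS-5759. Each number of MFAP2 was lower with both, by -0.22 (block adjusted p = 0.0235) and -0.21 (block adjusted p = 0.0361), and neither passed without replicate 3. NID2, nidogen 2, read 920.5, 905, 946 and 945, 795, 789, 881 and 781 and 834, 843, 817 and 781 in the same order, with each treated array below each vehicle array. The NID2 difference was -0.19 (block adjusted p = 0.0435) and -0.18 (block adjusted p = 0.0849), and the Ind/GSK call held in 2 of 12 leave-out fits and not without replicate 3 (-0.22). LOXL2, a second lysyl oxidase, fell by 0.16 and SPARC by 0.10 with Ind/GSK in the blocked fit. For SPARC the fall was lost with either other scaling and without replicate 3, and for LOXL2 with quantile normalization.

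TNC, outside the genes tested, read 19.1, 34.1, 78.4 and 16.03 with vehicle, 44.4, 56.3, 258 and 24.3 with Ind/GSK and 70.05, 57.2, 209 and 26.8 with GS-5759 at 6 h. Each number was higher with both treatments, although the groups overlapped. With no filter the differences were 0.80 and 0.88, not called on group means (adjusted p = 0.813 and 0.741) and called with the block (0.0106 and 0.00751). Without replicate 3 they were 0.55 (block adjusted p = 0.290) and 0.75 (0.155) and were not called. At 18 h they were 0.69 (block adjusted p = 0.103) and 0.74 (0.249). The 2 other TNC probe sets, both below the filter level, gave -0.22 and -0.19, and 0.16 and 0.09, at 6 h.

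Fibronectin was not called with either treatment at any time. At 6 h FN1 signals were 6716, 7003, 5825 and 7232 with vehicle, 5695, 7644, 5935 and 7076 with Ind/GSK and 6627, 8138, 5954 and 6809 with GS-5759, overlapping throughout, with differences of -0.03 (95% interval with the block -0.16 to 0.10) and 0.04 (-0.10 to 0.17). Its promoter window was the only one among these genes with TGACGTCA, the full palindromic cyclic AMP response element. The sequence is shown because it holds the full element, and a link between motif and response was not tested. It is chr2:215436069-215436318 on the minus strand of GRCh38.p14 from RefSeq, with the element in capitals.
FN1: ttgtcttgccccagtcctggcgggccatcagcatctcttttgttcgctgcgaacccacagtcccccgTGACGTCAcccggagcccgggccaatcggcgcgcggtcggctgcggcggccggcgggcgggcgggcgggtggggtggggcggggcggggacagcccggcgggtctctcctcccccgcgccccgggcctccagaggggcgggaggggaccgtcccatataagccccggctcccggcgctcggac

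Of the 39 genes 30 had a RefSeq promoter window, from 250 bases before to 50 after the start, and both strands were searched. A gene was counted where any of its windows held the letters, and 4 of the 30 had several windows. TGACGTCA occurred in 1 of 30 and in 2.25% of all 27305 genes with a window. TGACG, which lies within TGACGTCA, occurred in 9 of 30 (30.0%; 28.42% of all genes), at position -74 of SMOC1 and -40 of VCAN. The AP-1 site TGANTCA occurred in 4 of 30 (9.37% of all genes), TATAAA in 6 of 30 (13.99%), and GGGCGG in 25 of 30, 83.3%, against 48.30% of all genes. Of the 8 genes that rose with both treatments at 6 h in the blocked fit, 6 had a window: TGACG was in 3 of them (LOX, SMOC1 and VCAN) and GGGCGG in all 6. A match is a description of letters in this window and no measure of binding.

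At 1 h the member response was slight. With Ind/GSK 1 gene rose on group means, POSTN, where 1.83% of all genes passed and 0.451% rose, and with the block 1 rose and 4 fell, where 2.28% of all genes rose and 15.8% fell. POSTN, a matricellular protein linked to airway epithelium in asthma, read 129, 135, 148 and 194 with vehicle, 305, 215, 212 and 188 with Ind/GSK and 171, 195, 195 and 178 with GS-5759. The Ind/GSK and vehicle arrays overlapped at replicate 4 and were apart in the other numbers. The Ind/GSK difference was 0.55 ± 0.11 (1.46-fold, adjusted p = 0.00452 on group means), higher in 3 of 4 numbers, and with GS-5759 0.28 (adjusted p = 0.811). The call was lost without Ind/GSK replicate 1, without replicates 1 or 2, and with the mean of all POSTN probe sets, which gave 0.20. The other POSTN probe set above the filter level gave 0.35, and those below it -0.13 and 0.03. The vehicle arrays at 1 h also read below those at 2 h (241, 241, 215 and 208), so this difference rests on the same low vehicle arrays as the time change described further on.

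The 4 falls with Ind/GSK at 1 h, in COL5A2 (-0.15), COL4A2 (-0.21), MFAP2 (-0.20) and SPOCK1 (-0.31), moved with the scaling of the arrays. In the deposited scaling 34 of 37 genes were lower, with a median of -0.11, beside -0.10 over all genes, of which 21.9% were higher. With arrays centred on their 75th percentile the medians were 0.01 and 0.02, 15 genes were lower and none fell. With quantile normalization 20 were lower and none fell. The COL5A2 fall was also lost without replicate 3 (-0.17, block adjusted p = 0.0574). With GS-5759 at 1 h no gene was called in either fit, where 0.271% of all genes passed on group means and 1.35% with the block. The unadjusted p on group means was below 0.05 for 1 of the 37 genes, against 601 of all 14409.

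At 2 h no gene passed on group means with either treatment, where 3.49% of all genes passed with Ind/GSK and 2.43% with GS-5759. The unadjusted p was below 0.05 for 1 and for none of the 37 genes, against 1962 and 1745 of all 14409. With the block SMOC1 and MFAP5 rose with both, as given above, where 3.76% and 5.27% of all genes rose. COL1A1 (-0.22 (block adjusted p = 0.0299)) and SPARC (-0.18 (block adjusted p = 5.96e-04)) fell with Ind/GSK, where 8.09% of all genes fell, and with GS-5759 they were at -0.10 and -0.09, not called. Between the treatments no gene differed at 2 h. Neither fell after quantile normalization. The SPARC fall passed in all 12 leave-out fits, and the COL1A1 fall was lost without replicate 3. Other COL1A1 probe sets gave -0.23, -0.06, 0.02 and 0.08 with Ind/GSK at 2 h, and a second SPARC probe set gave -0.10.

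At 18 h no gene passed on group means, where 0.0486% of all genes passed with Ind/GSK and 0% with GS-5759. In that fit 6 and 2 of the 37 genes had an unadjusted p below 0.05, against 849 and 462 of all 14409. With the block 2 rose and 4 fell with Ind/GSK (0.514% and 1.37% of all genes) and 1 rose and 1 fell with GS-5759 (0.0972% and 0.0486%). NID2 fell with both. It read 1298, 1350.1, 1313 and 993 with vehicle, 940.3, 1072, 886 and 898 with Ind/GSK and 1049, 941, 1079 and 833 with GS-5759. Vehicle replicate 4 was low and overlapped the treated arrays. The difference was -0.37 (block adjusted p = 0.00178) and -0.34 (block adjusted p = 0.0222), and without replicate 3 it was -0.31 and -0.36, not called for either, nor without replicate 1. POSTN rose with Ind/GSK, from 147, 113, 152 and 153 to 226, 188, 177 and 192, without overlap, by 0.43 (block adjusted p = 0.03). With GS-5759 POSTN read 184, 189, 173 and 188, also above all vehicle arrays, a difference of 0.35 that was not called. COL5A2 fell by 0.21, BGN by 0.22 and SPARC by 0.18 with Ind/GSK, and without replicate 3 only SMOC1 of these 6 calls remained.

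The 2 treatments were compared directly at each time, at the same nominal concentration of each agent, to ask whether the single bifunctional molecule and the pair of separate drugs left the matrix genes at different levels. No gene differed at 1, 2, 6 or 18 h in either fit, where 0% of all genes did. The unadjusted p on group means was below 0.05 for 1 of the 37 genes at 1 h and none at the other times. Of all 14409 genes it was below 0.05 for 855, 273, 468 and 54 at 1, 2, 6 and 18 h. SMOC1 at 6 h differed by -0.04 (GS-5759 minus Ind/GSK, 95% interval with the block -0.33 to 0.25). MFAP5 differed by 0.13 (-0.12 to 0.37), VCAN by 0.02 (-0.26 to 0.30), LOX by 0.06 (-0.21 to 0.33) and HSPG2 by -0.03 (-0.30 to 0.25). For SMOC1 at 18 h the difference was -0.50 (-0.79 to -0.20, block adjusted p = 1), an interval that leaves out 0 while the p misses the threshold over all genes. Without replicate 3, which read 2335 with Ind/GSK and 966 with GS-5759, it was -0.24 (-0.50 to 0.01). Over all 37 genes at 6 h the blocked intervals reached from -0.39 to 0.52, and a p that misses the threshold does not show that the treatments act alike.

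Averaged over the 4 times, no gene differed between treatments on group means, where 0.0902% of all genes did. None of the 37 had an unadjusted p below 0.05 in that fit, where 2374 of all 14409 genes did. With the block SPARC (0.07), BGN (0.10) and LOXL2 (0.07) were higher with GS-5759, where 13.1% of all genes were. None of the 3 was called with the arrays centred on their 75th percentile, with quantile normalization or without replicate 3. At 1 h the median difference over all genes was 0.09, and -0.02 with the 75th percentile centred.

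With vehicle alone, matrix genes also changed over time in culture. Between 6 and 18 h 2 of 37 genes rose and 2 fell on group means, where 11.5% of all genes passed (7.97% rose and 3.57% fell), and with the block 17 rose and 2 fell (45.9% and 5.41%), against 19.5% and 9.55% of all genes. The median difference was 0.19 against 0.01, and 33 of 37 genes were higher at 18 h, where 52.3% of all genes were. Without replicate 3, 16 of the 19 blocked calls remained, and 7 genes passed on group means. With the 75th percentile centred 11 rose and 3 fell, and with quantile normalization 13 and 2. Between 1 and 18 h 3 rose and none fell on group means (4.5% of all genes passed and 1.9% rose), and 17 rose and 1 fell with the block (9% and 10.2%), of which 11 of 18 remained without replicate 3. Quantile normalization gave 1 fall on group means.

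**Figure D5:**
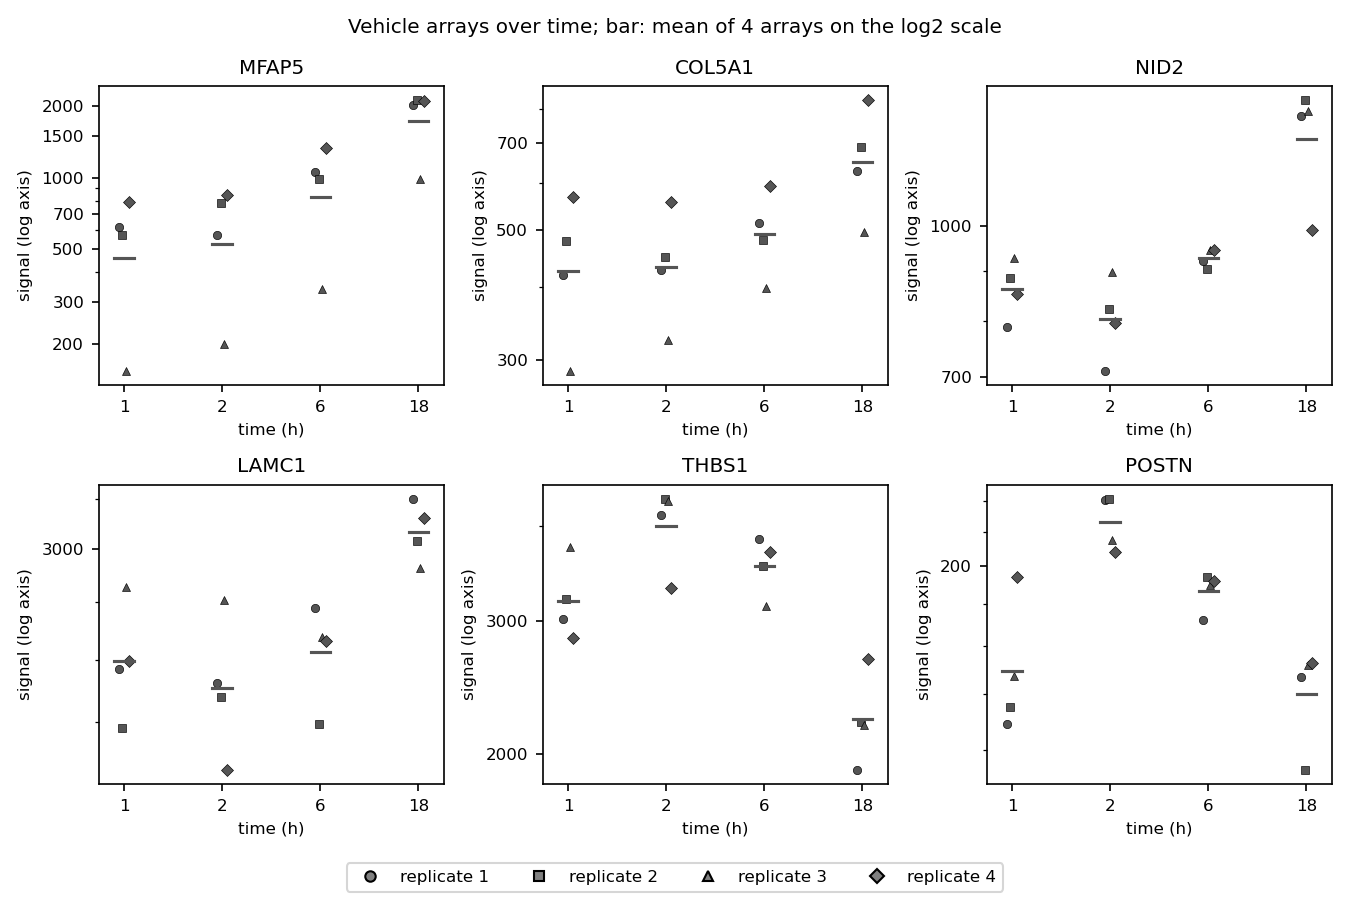
Signal (linear intensity, log axis) of MFAP5, COL5A1, NID2, LAMC1, THBS1 and POSTN in the 16 vehicle arrays at 1, 2, 6 and 18 h. Marker shapes give the replicate number, and bars the group mean on the log2 scale. MFAP5, COL5A1 and NID2 are highest at 18 h in every number, and THBS1 is lowest at 18 h in every number.

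Among microfibril and collagen genes, the plot of vehicle arrays over time shows MFAP5 with the largest rise. It read 621, 573, 153 and 792 at 1 h, 572, 784, 199 and 844 at 2 h, 1052, 983, 339 and 1334 at 6 h and 2020.3, 2129, 983 and 2092 at 18 h, rising in every number from 2 h on. From 1 to 18 h the difference was 1.87 ± 0.56, 3.66-fold (adjusted p = 0.0453 on group means, 7.40e-14 with the block). On group means it passed in 3 of 12 leave-out fits and with the block in all 12, between 1.64 and 2.04. From 2 to 6 h the blocked rise was 0.64 (block adjusted p = 0.0017) and from 6 to 18 h 1.04 (block adjusted p = 4.37e-08). COL5A1 read 419, 478, 287 and 567 at 1 h, 512, 480.1, 399 and 592 at 6 h and 627, 689.8, 495 and 830.3 at 18 h. Its blocked rise was 0.59 (block adjusted p = 6.04e-08) from 1 to 18 h and 0.39 (block adjusted p = 2.27e-05) from 6 to 18 h, and both passed in all 12 leave-out fits.

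The other blocked rises from 6 to 18 h covered several roles. Among collagens they were COL5A2 (0.30), COL4A1 (0.25), COL4A2 (0.31), COL13A1, a transmembrane collagen (0.50), COL12A1 (0.21), COL8A1 (0.19) and COL6A1 (0.17). VCAN (0.40), LOX (0.36), NID1, nidogen 1 (0.27), BGN (0.26), TGFBI (0.22) and LOXL2 (0.19) also rose. COL6A1, COL12A1, TGFBI and LOX were not called with either other scaling, and COL6A1, COL12A1 and NID1 were not called without replicate 3. COL5A2, COL4A1, COL4A2, COL13A1 and BGN kept the call in all 12 leave-out fits. Between 1 and 18 h COL1A1 (0.20), FBN2 (0.27), SPARC (0.13) and THBS2, thrombospondin 2 (0.39), were further rises, none called without replicate 3, and THBS1 was the 1 fall (-0.52, not called without replicate 3). The rises of COL5A2 and COL4A2 from 1 h were not called without replicate 3 either.

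Basement membrane genes NID2 and LAMC1 rose on group means. NID2 read 788, 884, 928 and 853 at 1 h, 709, 822, 898 and 795 at 2 h, 920.5, 905, 946 and 945 at 6 h and 1298, 1350.1, 1313 and 993 at 18 h. The 18 h arrays were all above those of the earlier times. The rise from 6 to 18 h was 0.40 ± 0.08 (adjusted p = 8.59e-04) and from 1 h 0.51 (adjusted p = 1.21e-04), and both passed in all 12 leave-out fits. LAMC1 read 2571, 2380.1, 2855 and 2596 at 1 h, 2780.1, 2394, 2678 and 2664 at 6 h and 3202, 3029.5, 2928 and 3121 at 18 h, again without overlap. Its rise was 0.22 from 6 h (adjusted p = 0.0372) and 0.24 from 1 h (adjusted p = 0.0479), each held in 3 of 12 leave-out fits, and a second probe set gave 0.14 and 0.03.

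THBS1 and POSTN, both matricellular, fell from 6 to 18 h on group means. THBS1 read 3014, 3206, 3754 and 2845 at 1 h, 4139.9, 4348, 4315 and 3312 at 2 h, 3848, 3545, 3140.0 and 3694 at 6 h and 1903, 2206, 2184 and 2673 at 18 h. The 18 h arrays were all below those at 6 h, by -0.67 ± 0.18 (adjusted p = 0.0103), and the fall was lost without replicate 1 or without replicate 2 but held with the block in all 12 fits. Of 6 other THBS1 probe sets, 4 gave -0.68 to -0.86 and the 2 dimmest -0.04 and -0.19. POSTN rose from 1 to 2 h, by 0.55 (adjusted p = 0.0111), where 2.57% of all genes passed and 0.881% rose (3.35% with the block), and read 172, 194, 189.9 and 192 at 6 h and 147, 113, 152 and 153 at 18 h, a fall of 0.38 (adjusted p = 0.0181). The rise was lost without vehicle replicate 1 at 1 or 2 h, vehicle replicate 2 at 1 h, or replicates 1 or 2. The fall was lost without vehicle replicate 2 at 6 or 18 h or without replicates 2 or 3. Neither was called with the mean of all POSTN probe sets, 0.14 and -0.10. The other POSTN probe set above the filter level gave 0.35 and -0.21. Those below it gave -0.18 and 0.02, and -0.17 and 0.17.

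The earlier vehicle steps called few other genes. From 1 to 2 h COL4A2 (-0.20), COL6A1 (-0.19), MFAP2 (-0.22) and BGN (-0.16) fell with the block, where 12.3% of all genes did, and none of the 4 fell after centring on the 75th percentile or quantile normalization, nor COL4A2 without replicate 3. From 2 to 6 h none passed on group means, where 0.305% of all genes passed. The unadjusted p in that fit was below 0.05 for 2 of the 37 genes, against 1234 of all 14409. With the block MFAP5 and BGN (0.21) rose, where 3.56% of all genes did.

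The change of the treatment response between neighbouring times was tested as the mean response of both treatments at the later time minus that at the earlier. On group means no gene was called in any of the 3 steps, where 0.132%, 0.569% and 0.361% of all genes were. With the block the SMOC1 response grew from 1 to 2 h, by 0.97 (block adjusted p = 8.38e-04), and from 2 to 6 h, by 1.48 (block adjusted p = 6.43e-07), and shrank from 6 to 18 h, by -1.18 (block adjusted p = 3.45e-05). With the block the response of 1.94% of all genes grew and of 0.444% fell in the first step, 2.21% and 2.67% in the second, and 2.85% fell in the last. The first of these was lost without replicate 1. The POSTN response fell from 1 to 2 h, by -0.53 (block adjusted p = 0.0235), and was not called without replicate 3. The POSTN rise of 0.55 in vehicle from 1 to 2 h enters this change. The BGN response fell from 2 to 6 h, by -0.23 (block adjusted p = 0.0412), while the vehicle mean log2 level of BGN went from 9.46 to 9.67. From 6 to 18 h the responses of COL8A1 (-0.34 (block adjusted p = 0.00254)) and COL5A2 (-0.29 (block adjusted p = 0.00378)) fell, and neither was called without replicate 3. In that step 33 of 37 genes had a lower response at 18 h than at 6 h, with a median of -0.13 against 0.02 over all genes. Over all genes 55.9% had a higher response at 18 h. The response is a difference from vehicle, so the vehicle rise from 6 to 18 h, with 33 of 37 genes higher, enters it. For COL5A2 the mean log2 level went from 11.65 to 11.94 with vehicle, 11.74 to 11.74 with Ind/GSK and 11.78 to 11.79 with GS-5759. For COL8A1 it went from 13.26 to 13.46, 13.45 to 13.29 and 13.45 to 13.31 in the same order.

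Genes that handle the same matrix were read from 3 further lists. Of 19 matrix receptors 16 were tested. On group means none rose, and ITGB1, the integrin β1 chain, fell by 0.19 with Ind/GSK at 2 h. At 6 h with the block 3 of the 16 rose with Ind/GSK (4.68% of all genes) and 4 with GS-5759 (6.01%) and none fell (13.1% and 4.58%), among them the hyaluronan receptor CD44 (0.53 and 0.51) and the syndecan SDC4 (0.26 and 0.31). Of 22 genes for collagen processing and cross-linking 20 were tested. BMP1, the procollagen C-proteinase, rose with GS-5759 at 6 h by 0.44 (adjusted p = 0.0380), and LOXL4 fell with GS-5759 at 2 h by 0.46 (adjusted p = 0.0465). Of 42 other matrix genes 34 were tested, and CCN2, a matricellular growth factor binder, was the 1 called on group means with treatment. It was higher at 2 h by 1.25 with Ind/GSK (adjusted p = 0.00442) and 1.35 with GS-5759 (adjusted p = 0.00193), and in vehicle it fell by 1.01 from 1 to 2 h, so the same low vehicle arrays at 2 h enter both. With vehicle from 6 to 18 h, 5 of 16 receptors, 6 of 20 processing genes and 10 of 34 other matrix genes rose with the block and none fell, where 19.5% of all genes rose and 9.55% fell, with ITGA1 (0.49), ITGA5 (0.28), P4HA1, a prolyl hydroxylase subunit (0.40), COL11A1 (0.42) and CCN2 (0.89) also called on group means. The list medians for that step were 0.12, 0.07 and 0.09, against 0.01 over all genes.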

How the data were processed

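RNA of 48 BEAS-2B samples was hybridised, 1 array each. The deposited values are linear intensities, 1 per probe set. The submitters' processing notes name PLIER and the software Affymetrix Expression Console. No value was 0, with array medians of 7.00 to 7.17 on the log2(value + 16) scale, and the number of arrays limits the precision. PLIER settings and versions were not given in the sources used here. Of 54675 probe sets, 62 were controls, 41091 carried 1 gene symbol, 1801 several and 11721 none, and 41043 symbols were matched by gene ID. Per gene the probe set with the highest mean was kept, and genes below the 40th percentile of mean log2 level (6.51) were not tested.

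Differences were fitted with limma 3.58.1 (R 4.3.3; lmFit and eBayes, 36 residual degrees of freedom) on 12 group means, with Benjamini-Hochberg adjustment over 14409 genes within each comparison and a threshold of 0.05. A second fit added the replicate number as a block (33 residual degrees of freedom). Pairing was checked on deviations from group means. All 208 same-number array pairs, over 52 pairs of groups, correlated at 0.171 to 0.935, above the minimum of 0.1, and pairs of different numbers at up to 0.786. The labels give the shared numbers but not what they mark. Alternatives were other centring, quantile normalization, an added value of 1, no filter, the mean of a gene's probe sets, the block, and each array or replicate number left out. Leaving out a replicate number, the block together with each other choice, and a filter passed whichever number is left out were added after seeing the data.

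Members and lists were chosen with earlier results of these data known. Named genes followed a rule: array values for the called members with the largest differences, log2 differences for the others. Array values of members called only with the block were added after their values were seen. Promoter sequences are RefSeq's (GRCh38.p14). The scripts were tested on simulated data.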

Additional observations from a re-analysis of the deposited data

Results flagged for a closer look

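In groups of 4 arrays, Dixon's test asks whether 1 array stands far from the other 3. It did in 43 of the 456 groups of 38 matrix genes, 9.43%. The nominal rate of the test is about 5%, but the 12 groups of a gene share the replicate numbers and are not independent. The share over all genes was not counted, so an excess in matrix genes is not shown. The array was that of replicate 3 in 34 of the 43 and the flags fell on 17 genes. Replicate 3 was the highest of its group in 7 of 12 groups for LAMB3, 4 for LAMA5 and 1 each for TNC, LOX and NID2. It was the lowest in 7 of 12 for MFAP5, 6 for COL13A1, 3 for COL6A2 and 1 each for COL4A2, COL8A1, FBN2 and POSTN. Replicate 2 was far above the rest in 1 group each for COL3A1, FBN1 and THBS1 and far below in 1 for POSTN. Replicate 4 was far below in 1 group each for NID2 and HSPG2 and far above in 1 for NID1. Replicate 1 was far below in 1 group for COL3A1 and far above in 1 for HSPG2. The summed epithelial markers were 246601 to 500552 in replicate 3 and 10017 to 21117 elsewhere, and their part in these values was not tested.

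Tests of a difference between effects passed for these genes in limma's fit with the replicate block. GS-5759 exceeded Ind/GSK over the mean of 4 times by 0.0673 for SPARC, 0.10 for BGN and 0.0733 for LOXL2 on the log2 scale. The mean response of both treatments changed from 1 to 2 h by 0.97 for SMOC1 and -0.53 for POSTN. From 2 to 6 h it changed by 1.48 for SMOC1 and -0.23 for BGN. From 6 to 18 h it changed by -1.18 for SMOC1, -0.34 for COL8A1 and -0.29 for COL5A2.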

How the results depend on the processing

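Counts are of the 37 matrix genes. The replicate block raised most counts of called genes: with Ind/GSK at 1, 2, 6 and 18 h to 5, 4, 14 and 6 (from 1, 0, 1 and 0), with GS-5759 at 2, 6 and 18 h to 2, 9 and 2 (from 0, 1 and 0), and between treatments over the mean of 4 times to 3 (from 0). In vehicle it raised the counts for 2 against 1 h, 6 against 2 h, 18 against 6 h and 18 against 1 h to 5, 2, 19 and 18 (from 1, 0, 4 and 3), and for the change of response in the 3 steps to 2, 2 and 3 (from 0). It changed no other count. With the mean of all probe sets the counts without the block were 0 for Ind/GSK at 1 h, 0 for vehicle at 2 against 1 h and 2 at 18 against 6 h, and with the block 8 for Ind/GSK at 6 h and 11 for vehicle at 18 against 6 h. Centring on the 75th percentile gave 1 for Ind/GSK at 18 h, and no filter 1 for vehicle at 18 against 1 h. The blocked SPARC difference between treatments reversed to -0.0014 with the 75th percentile centred.

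With an array or a replicate number left out, counts without the block were 0 to 1 for Ind/GSK at 1, 6 and 18 h, for GS-5759 at 2, 6 and 18 h, for vehicle at 2 against 1 h and 6 against 2 h, and for the change of response from 1 to 2 h. They were 1 to 7 for vehicle at 18 against 6 h, with 7 without replicate 3, and 1 to 6 at 18 against 1 h. With the block they were 5 to 12 for Ind/GSK at 6 h, 5 to 8 for GS-5759 at 6 h, and 9 to 18 for both vehicle steps to 18 h. The number of genes that differed between replicate numbers was 29 to 33 (34 with all arrays). Counts that were 0 stayed 0 in these fits for both treatments against each other at each time. TNC read below the filter level in 34 of 48 arrays, which limits the precision of its values.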
